A study of Mus musculus with 12 samples.

Results

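The 10 genes described here are used as markers of mural cells, the pericytes and smooth muscle cells that wrap blood vessels, and they were followed by RNA-seq in endothelium sorted out of embryonic mouse hearts. They were Kcnj8, Abcc9, Rgs5, Cspg4, Pdgfrb, Notch3, Tagln, Acta2, Cnn1 and Myh11, taken by gene symbol out of the 41214 genes of the deposited count table, and all 10 were found. The series holds 12 libraries of coronary and endocardial endothelium at 2 embryonic stages, with 2 libraries of each population at E17 and 4 of each at E13. All embryos carried the transgene Nes-gfp (Tg/0), in which regulatory sequence of the nestin gene drives a green fluorescent protein. The E17 embryos carried in addition Nes-CreER(Tg/0) and R26 (tom/+), an inducible Cre and a red reporter, and received 0.1 ug of tamoxifen before collection, so stage cannot be told apart from these alleles and the drug. Live cells with CD31, an endothelial surface protein, but without Ter119 (erythroid) or CD45 (leukocyte) were collected from ventricles without atria or aortic region. For E17 coronary cells the study describes a Tomato+ and a Tomato- gate, both Emcn-low, and the labels do not say which gate gave the libraries. The E17 endocardial gate was GFP+. The E13 coronary gate was GFP+ and the E13 endocardial gate was GFP-low and Emcn-high.

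Kcnj8 and Abcc9 encode the pore (Kir6.1) and the regulatory subunit (SUR2) of the ATP-sensitive potassium channel of vessels, which couples cell metabolism to membrane potential. Pericytes and smooth muscle cells are recruited to growing vessels through the receptor tyrosine kinase encoded by Pdgfrb, whose ligand Pdgfb is made by endothelial cells, and their maturation depends on the receptor Notch3. Smooth muscle cells then build a contractile apparatus from products of Acta2 (smooth muscle actin), Myh11 (smooth muscle myosin heavy chain), Tagln (transgelin) and Cnn1 (calponin), many of whose genes are bound by serum response factor. Rgs5, a regulator of G protein signalling, and Cspg4, the NG2 proteoglycan, are widely used pericyte markers.

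Seen together, the 10 genes did not all share a pattern. Kcnj8 and Abcc9 were higher in coronary than in endocardial libraries at both stages and higher at E17 than at E13 in coronary libraries. Across the E13 coronary libraries these 2 channel genes lay nearer to the mean of a list of endothelial genes, which itself varied little. There 7 of the other genes lay nearer to a list of mesenchymal genes. The share of all genes that lay nearer to either list was not taken. In the 2 E17 coronary libraries both channel genes were higher in replicate 1, where 0 of the 12 pan-endothelial genes were. Tagln and Cnn1 were high in E13 coronary libraries and much lower in E17 coronary libraries, and Myh11 was barely read at E13. Of the 10 genes, 8 passed the test as higher and 0 as lower in coronary libraries at E17, where 26.5% of the 15171 genes tested passed as higher and 26.1% as lower (52.6% in either direction). At E13 7 of the 10 passed as higher and 0 as lower, where 30.1% of all genes tested passed as higher and 29.9% as lower (60% in either direction). All 10 were tested, although Myh11 reached the level that the filter on low counts asks for, 0.553 CPM by library totals, in only 4 of the 12 libraries. Differences were tested by quasi-likelihood in edgeR, with p-values adjusted over all genes tested by the Benjamini-Hochberg method and a threshold of 0.05. Levels are in CPM, in which counts are divided by the library total times its TMM factor. In bulk samples fewer cells of a type and less RNA per cell cannot be told apart. Log2 fold changes are given ± SE, where the SE is the size of the log2 fold change divided by the root of its F statistic.

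Library totals ran from 14973633 to 27360653 expected counts. All 12 pan-endothelial genes of a fixed list were read in every library, with summed levels of 13118 to 14864 CPM in E17 coronary, 10967 to 11569 CPM in E17 endocardial, 7011 to 9421 CPM in E13 coronary and 9958 to 11030 CPM in E13 endocardial libraries. A list of 12 mesenchymal and fibroblast genes, none of them at 0 in any library, summed to 2615 to 5432 CPM in E17 coronary against 4671 to 4710 CPM in E17 endocardial libraries, and to 3656 to 8517 CPM in E13 coronary against 3555 to 4047 CPM in E13 endocardial libraries. Of these mesenchymal genes 5 passed as higher and 4 as lower in coronary libraries at E17, against 26.5% and 26.1% of all genes tested, and 9 as higher and 1 as lower at E13, against 30.1% and 29.9%. Their part in the levels of the mural genes was not tested. A list of 6 leukocyte genes summed to 3.47 to 4.39 CPM in E17 coronary against 13.8 to 19.9 CPM in E17 endocardial libraries, and to 8.47 to 12 CPM in E13 coronary against 7.55 to 11.6 CPM in E13 endocardial libraries. Ptprc, the gene of CD45, lay between 0 and 0.44 CPM in all libraries. Of the 4 leukocyte genes tested, the macrophage genes Cd68 (-2.16, edgeR adjusted p = 0.000399) and Csf1r (-2.42, adjusted p = 0.00797) passed as lower in coronary libraries at E17, and Csf1r passed as higher at E13 (1.21, adjusted p = 0.024). The E17 count was 1 without E17 coronary replicate 2 or E17 endocardial replicate 1, and the E13 count was 0 without E13 coronary replicate 4 or E13 endocardial replicate 3. A list of 12 cardiomyocyte genes summed to 251 to 356 CPM in E17 coronary against 306 to 370 CPM in E17 endocardial libraries, and to 187 to 380 CPM in E13 coronary against 274 to 417 CPM in E13 endocardial libraries. The part of both cell types in the levels of the mural genes was not tested. The labels name no litters or animals behind the replicates, so the p-values speak of the spread between libraries, which may be technical.

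Kcnj8 and Abcc9 lie beside each other on chromosome 6, on the same strand and 16247 bases apart (GRCm38, chr6:142564837-142571614 and chr6:142587862-142702315). The 250 bases before each RefSeq transcription start are shown because both genes were higher in coronary libraries at both stages. The windows are from build GRCm38.p6, minus strand, at chr6:142571615-142571864 for Kcnj8 and chr6:142702275-142702524 for Abcc9. Capitals mark TGGGAA, letters bound by the Notch effector RBPJ, searched on both strands and present once in Abcc9.
Kcnj8: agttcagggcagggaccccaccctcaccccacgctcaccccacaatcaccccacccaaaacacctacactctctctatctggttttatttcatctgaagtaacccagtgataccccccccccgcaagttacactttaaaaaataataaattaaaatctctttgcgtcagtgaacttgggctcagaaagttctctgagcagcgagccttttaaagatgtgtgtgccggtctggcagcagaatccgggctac
Abcc9: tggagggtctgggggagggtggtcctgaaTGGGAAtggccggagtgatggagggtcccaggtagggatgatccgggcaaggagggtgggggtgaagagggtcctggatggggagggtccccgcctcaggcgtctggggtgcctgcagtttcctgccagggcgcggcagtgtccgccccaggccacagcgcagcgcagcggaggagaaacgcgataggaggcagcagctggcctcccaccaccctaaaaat
TGGGAA stood in 21.6% of 32851 mouse promoter windows of the same length and in 2 of the 7 members in the promoter table, so a match describes the sequence only.

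Kcnj8 stood at 51.0 and 39.4 CPM in E17 coronary libraries, against 1.64 and 0.907 CPM in E17 endocardial libraries. At E13 it stood at 23.2, 17.4, 15.9 and 16.6 CPM in coronary libraries 1 to 4, against 0.752, 0.721, 0.750 and 0.654 CPM in endocardial libraries 1 to 4. Every coronary library lay far above every endocardial library of its stage, and both E17 coronary libraries lay above all E13 coronary libraries. The fold was 34.8 at E17 (log2 5.12 ± 0.26, edgeR adjusted p = 1.57e-08) and 25.0 at E13 (4.65 ± 0.19, edgeR adjusted p = 4.48e-09). The endocardial counts were low, 44 in all at E17 and 61 at E13, and pooled counts gave ratios of 34.4 (exact 95% interval 25.5 to 47.5) and 25.1 (19.4 to 33.0), which cover counting error only. Between stages, Kcnj8 rose 2.47-fold in coronary libraries (log2 1.31 ± 0.16, edgeR adjusted p = 3.67e-05). In endocardial libraries its E17 minus E13 value of 0.83 ± 0.30 lay at the threshold (edgeR adjusted p = 0.0512). It passed with DESeq2 size factors (adjusted p = 0.0493), by DESeq2's Wald test (0.047) and without E13 coronary replicate 1 (adjusted p = 0.0219), E13 coronary replicate 3 (0.0486), E17 endocardial replicate 2 (0.0261), E17 coronary replicate 1 (0.0404) or E17 coronary replicate 2 (0.0454).

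Abcc9, the partner subunit, stood at 539 and 515 CPM in E17 coronary libraries, against 29.3 and 48.0 CPM in E17 endocardial libraries. At E13 the coronary libraries held 195, 141, 118 and 131 CPM, against 29.6, 36.6, 30.1 and 27.1 CPM in endocardial libraries. The populations did not overlap at either stage, and the endocardial level was well above the few counts seen for Kcnj8. The fold was 13.7 at E17 (log2 3.78 ± 0.26, edgeR adjusted p = 1.73e-07) and 4.74 at E13 (2.24 ± 0.17, adjusted p = 4.09e-07). Abcc9 rose 3.60-fold from stage to stage in coronary libraries (log2 1.85 ± 0.19 for E17 minus E13, edgeR adjusted p = 6.88e-06), while its endocardial value of 0.32 ± 0.21 did not pass (adjusted p = 0.293). The population difference was larger at E17 than at E13 by 1.53 ± 0.29 on the log2 scale (edgeR adjusted p = 0.00173). For Kcnj8 the same difference was 0.47 ± 0.35 and did not pass (adjusted p = 0.333).

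The 2 subunit genes kept different proportions in the populations. Per library, Abcc9 had 10.6 and 13.1 counts for each count of Kcnj8 in E17 coronary libraries, against 17.9 and 52.9 in E17 endocardial libraries, where Kcnj8 had few counts. In E13 coronary libraries the ratio was 8.42, 8.14, 7.42 and 7.86, against 39.4, 50.8, 40.2 and 41.4 in E13 endocardial libraries. These ratios barely moved between the E13 coronary libraries and did not overlap between the populations at either stage. The genes of the other channel pair, Kcnj11 and Abcc8, reached at most 0.24 and 0.41 CPM in any library and did not pass the filter on low counts. A further gene, 5330439B14Rik, shares 158 exonic bases with Abcc9 on the opposite strand and is not a row of the table, and the library kit does not mark strand.

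**Figure D1:**
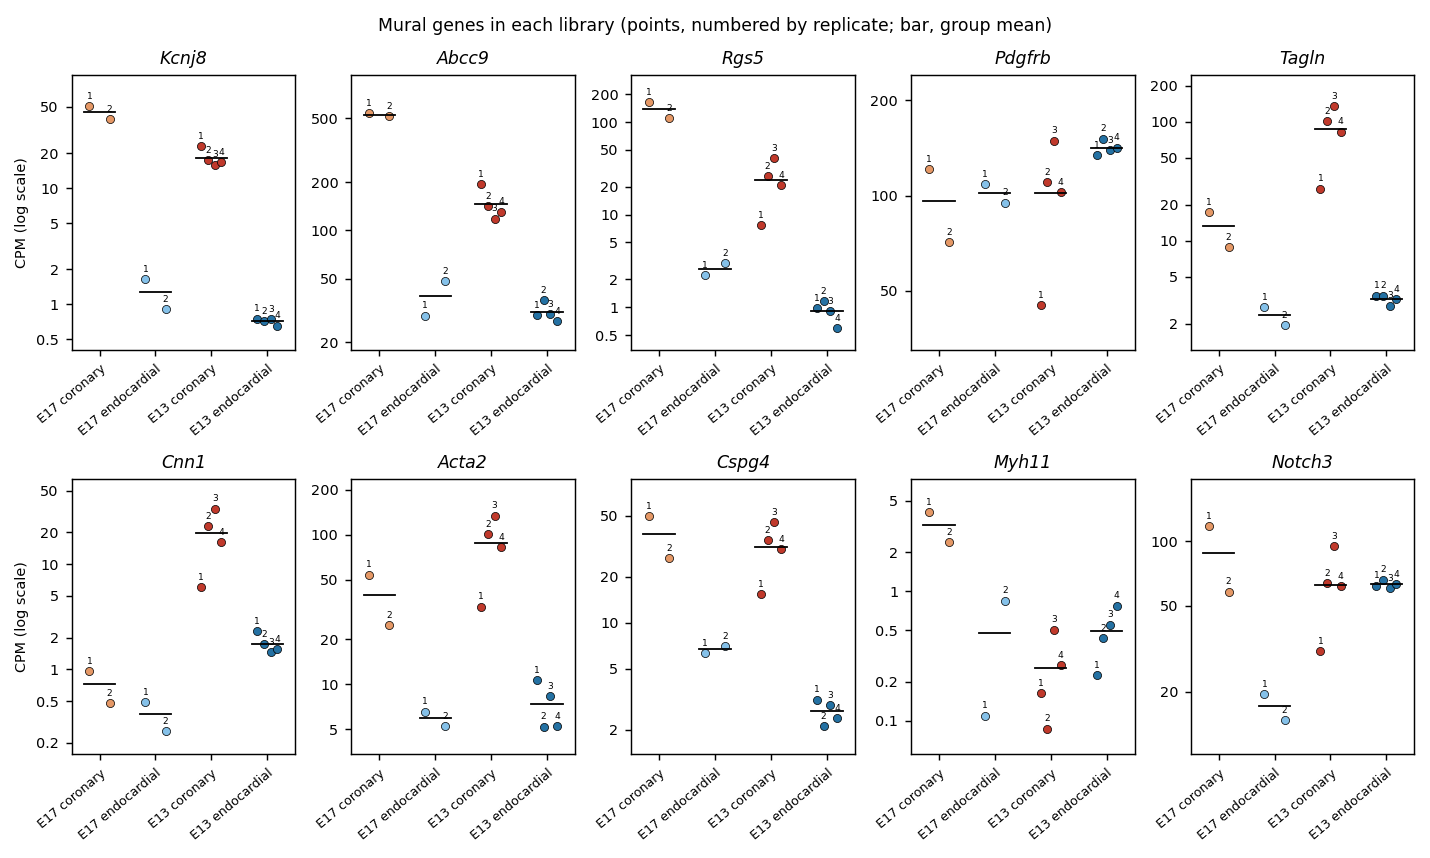
Level of each of the 10 mural genes in CPM on log axes, 1 point per library numbered by replicate, with a bar at the mean of each group (n = 2 at E17, n = 4 at E13). Kcnj8 and Abcc9 are highest in both E17 coronary libraries, Tagln and Cnn1 in the E13 coronary libraries, and E13 coronary replicate 1 lies lowest of its group for 7 genes.

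Rgs5 stood at 164 and 111 CPM in E17 coronary libraries, against 2.24 and 2.98 CPM in E17 endocardial libraries. At E13 the coronary libraries held 7.68, 26.0, 40.8 and 20.6 CPM, against 0.977, 1.15, 0.900 and 0.595 CPM in endocardial libraries. The populations were far apart at both stages, but the E13 coronary libraries differed 5.32-fold among themselves, with replicate 1 lowest and replicate 3 highest. The log2 fold change was 5.73 ± 0.62 at E17 (edgeR adjusted p = 8.99e-06) and 4.68 ± 0.51 at E13 (adjusted p = 6.86e-06). Rgs5 rose 5.75-fold in coronary libraries with stage (log2 2.52 ± 0.38, edgeR adjusted p = 0.000168). In endocardial libraries the value of 1.48 ± 0.81 did not pass (adjusted p = 0.191). It passed without E13 coronary replicate 1 (adjusted p = 0.0365), by DESeq2's Wald test (0.0398) and with only the groups compared (0.00448).

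Cspg4 stood at 49.4 and 26.4 CPM in E17 coronary libraries, against 6.33 and 7.07 CPM in E17 endocardial libraries. At E13 it stood at 15.3, 34.6, 45.5 and 30.1 CPM in coronary libraries, against 3.16, 2.11, 2.90 and 2.38 CPM in endocardial libraries. Coronary libraries were higher without overlap at both stages, whereas the coronary libraries of the 2 stages overlapped, with E17 replicate 1 above all E13 libraries and E13 replicate 1 below both E17 libraries. The log2 fold change was 2.50 ± 0.43 at E17 (edgeR adjusted p = 0.00036) and 3.56 ± 0.33 at E13 (adjusted p = 1.75e-06). With stage, Cspg4 gave 0.27 ± 0.33 in coronary libraries (adjusted p = 0.532) and rose by 1.33 ± 0.41 in endocardial libraries (edgeR adjusted p = 0.0279). The endocardial call was lost without E17 endocardial replicate 1 (adjusted p = 0.101), E17 endocardial replicate 2 (0.136), E13 endocardial replicate 2 (0.0662) or E13 endocardial replicate 4 (0.0569).

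Pdgfrb, the receptor by which mural cells follow endothelial Pdgfb, was the member with the highest endocardial levels. It stood at 121 and 71.2 CPM in E17 coronary libraries, against 109 and 95.0 CPM in E17 endocardial libraries. At E13 it stood at 45.0, 110.4, 149 and 102 CPM in coronary libraries, against 134, 151, 139 and 142 CPM in endocardial libraries. The 4 E13 endocardial libraries lay within 1.13-fold of each other, while E13 coronary replicate 1 lay below all of them and replicate 3 within their range. The log2 fold change was -0.09 ± 0.39 at E17 (edgeR adjusted p = 0.869) and -0.47 ± 0.27 at E13 (adjusted p = 0.147). Pdgfrb passed as lower at E13 with batch as a block (-0.58, adjusted p = 0.0487) and without E13 coronary replicate 3 (-0.69, adjusted p = 0.0353). Within the batches that the labels give, the log2 ratio of coronary over endocardial was 0.15 and -0.42 in the E17 batches 5 and 6, and -1.57, -0.45, 0.10 and -0.47 in the E13 batches 1 to 4. E17 minus E13 gave -0.09 ± 0.33 in coronary and -0.47 ± 0.34 in endocardial libraries, and neither passed (adjusted p = 0.852 and 0.322). All 4 E13 endocardial libraries lay above both E17 endocardial libraries, and with only the groups compared the endocardial value passed as lower (-0.47 ± 0.07, edgeR adjusted p = 0.000974).

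Notch3 stood at 117 and 58.3 CPM in E17 coronary libraries, against 19.5 and 14.8 CPM in E17 endocardial libraries. At E13 the coronary libraries held 30.7, 63.7, 94.8 and 62.0 CPM, against 62.1, 66.2, 60.3 and 63.2 CPM in endocardial libraries. The populations did not overlap at E17 and overlapped at E13, where the 4 coronary libraries spread on both sides of the narrow endocardial range. The log2 fold change was 2.34 ± 0.43 at E17 (edgeR adjusted p = 0.000574) and -0.00 ± 0.28 at E13 (adjusted p = 0.997), a difference between stages of 2.35 ± 0.51 (edgeR adjusted p = 0.00373) that was 1.76 without E17 coronary replicate 1. That difference went with a fall of 1.87 ± 0.39 in endocardial libraries at E17 relative to E13 (edgeR adjusted p = 0.00317), against 0.48 ± 0.33 in coronary libraries (adjusted p = 0.258). E13 coronary replicate 1, set alone against the endocardial libraries after its low values were seen and so given no test, had a log2 ratio of -1.04. A predicted gene, Gm17276, shares 488 exonic bases with Notch3 on the opposite strand and had 0 to 1 counts per library.

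Tagln, an actin-binding protein of smooth muscle, stood at 17.5 and 8.87 CPM in E17 coronary libraries, against 2.78 and 1.94 CPM in E17 endocardial libraries. At E13 the coronary libraries held 27.4, 102, 134 and 82.6 CPM, against 3.46, 3.46, 2.85 and 3.21 CPM in endocardial libraries. The populations did not overlap at either stage, and all E13 coronary libraries lay above both E17 coronary libraries. The log2 fold change was 2.45 ± 0.73 at E17 (edgeR adjusted p = 0.0132) and 4.73 ± 0.45 at E13 (adjusted p = 2.11e-06). The E17 call was lost without E17 endocardial replicate 1 (adjusted p = 0.0552), E17 endocardial replicate 2 (0.0765) or E17 coronary replicate 1 (0.1). Tagln fell by 2.73 ± 0.51 on the log2 scale in coronary libraries at E17 relative to E13, or 6.62-fold (edgeR adjusted p = 0.000816), and gave -0.44 ± 0.74 in endocardial libraries (adjusted p = 0.699). Pcsk7 shares 108 exonic bases and Gm48529 1241 exonic bases with Tagln on the opposite strand, so part of the Tagln counts could belong to either. Pcsk7 had 763 to 1153 counts per library and Gm48529 is not a row of the table.

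Cnn1, the calponin gene, stood at 0.960 and 0.479 CPM in E17 coronary libraries, against 0.491 and 0.259 CPM in E17 endocardial libraries. At E13 the coronary libraries held 6.06, 22.9, 33.7 and 16.1 CPM, against 2.29, 1.73, 1.45 and 1.55 CPM in endocardial libraries. At E13 coronary libraries were all higher, and at E17 the populations overlapped at a few counts per library. The E13 log2 fold change was 3.47 ± 0.44 (edgeR adjusted p = 2.53e-05), and the E17 value was 0.87 ± 1.05 (adjusted p = 0.515), with 22 counts in all against 13 and a pooled ratio of 1.83 (exact 95% interval 0.88 to 3.95). Cnn1 fell by 4.79 ± 0.69 on the log2 scale in coronary libraries at E17 relative to E13, or 27.6-fold (edgeR adjusted p = 0.000106). In endocardial libraries the value of -2.19 ± 0.81 did not pass (adjusted p = 0.0566). It passed without E13 coronary replicate 1 (adjusted p = 0.00503) or E13 coronary replicate 3 (0.0232), by DESeq2's Wald test (0.00233), with only the groups compared (0.00253) and with no filter on low counts (0.0259).

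Acta2 stood at 54.0 and 24.8 CPM in E17 coronary libraries, against 6.55 and 5.25 CPM in E17 endocardial libraries. At E13 it stood at 33.0, 101, 134 and 82.5 CPM in coronary libraries, against 10.6, 5.19, 8.30 and 5.23 CPM in endocardial libraries. Coronary libraries were higher without overlap at both stages, and E17 coronary replicate 1 lay between E13 coronary replicates 1 and 4. The log2 fold change was 2.73 ± 0.62 at E17 (edgeR adjusted p = 0.0028) and 3.55 ± 0.42 at E13 (adjusted p = 1.36e-05), and the E17 value was 2.08 without E17 coronary replicate 1. In coronary libraries E17 minus E13 gave -1.16 ± 0.47 and did not pass (adjusted p = 0.0562). It passed without E13 coronary replicate 1 (-1.44, adjusted p = 0.00257), without E17 coronary replicate 1 (-1.82, adjusted p = 0.036) and with no filter on low counts (-1.17, adjusted p = 0.0218). The coding sequence of Acta2 is nearly identical to that of other actin genes, so the share of reads assigned to it by the counting tool is uncertain.

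Myh11, the marker of mature smooth muscle, was close to the limit of detection. It had 4.05 and 2.40 CPM in E17 coronary libraries, against 0.109 and 0.843 CPM in E17 endocardial libraries. At E13 the coronary libraries held 0.162, 0.0866, 0.504 and 0.267 CPM, against 0.225, 0.432, 0.550 and 0.773 CPM in endocardial libraries. Both E17 coronary libraries lay above the other 10 libraries, and the E13 populations overlapped. The gene passed the filter on low counts with both E17 coronary and 2 endocardial libraries, E17 replicate 2 and E13 replicate 4. Its log2 fold change was 2.78 ± 0.81 at E17 (edgeR adjusted p = 0.0118), and it rose by 3.64 ± 0.66 in coronary libraries with stage (adjusted p = 0.000657). Pooled counts were 99 in E17 coronary against 15 in E17 endocardial libraries (ratio 7.12, exact 95% interval 4.12 to 13.2) and 20 in E13 coronary against 39 in E13 endocardial libraries (0.539, 0.298 to 0.947), counting error only. The E17 call was lost without E17 endocardial replicate 1 (1.92, adjusted p = 0.0883) or E17 coronary replicate 1 (2.38, adjusted p = 0.0677), and the value was 4.8 without E17 endocardial replicate 2.

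The 250 bases before the RefSeq starts of Acta2 (minus strand, chr19:34255374-34255623) and Cnn1 (plus strand, chr9:22099003-22099252), both in build GRCm38.p6, are shown because these contractile genes moved differently with stage. Capitals mark CArG boxes, the serum response factor motif, with at most 1 base other than A or T in the core, and the letters TGGGAA as above, both searched on both strands.
Acta2: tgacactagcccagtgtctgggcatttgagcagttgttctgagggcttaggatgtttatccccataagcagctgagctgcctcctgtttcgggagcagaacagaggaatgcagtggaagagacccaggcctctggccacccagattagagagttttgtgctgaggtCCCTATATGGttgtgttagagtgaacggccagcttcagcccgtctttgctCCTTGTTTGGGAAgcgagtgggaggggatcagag
Cnn1: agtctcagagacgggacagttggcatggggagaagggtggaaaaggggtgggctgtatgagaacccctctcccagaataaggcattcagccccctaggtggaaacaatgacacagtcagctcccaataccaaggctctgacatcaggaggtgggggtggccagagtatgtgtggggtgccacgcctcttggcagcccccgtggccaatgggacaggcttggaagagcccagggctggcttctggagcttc
Acta2 held CArG letters at -84 (CCCTATATGG) and -34 (CCTTGTTTGG) from the start, the second of which overlaps TGGGAA at -27 in the sequence shown. Such a box stood in 8.59% of the 32851 windows and in 1 of the 7 members in the table, and a box with no other base in the core stood in 1.47% of windows and in 0 of 7 members. Cnn1 had no match in this window, which says only that these letters are not in it. Tagln, Myh11 and Pdgfrb are named only.

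**Figure D2:**
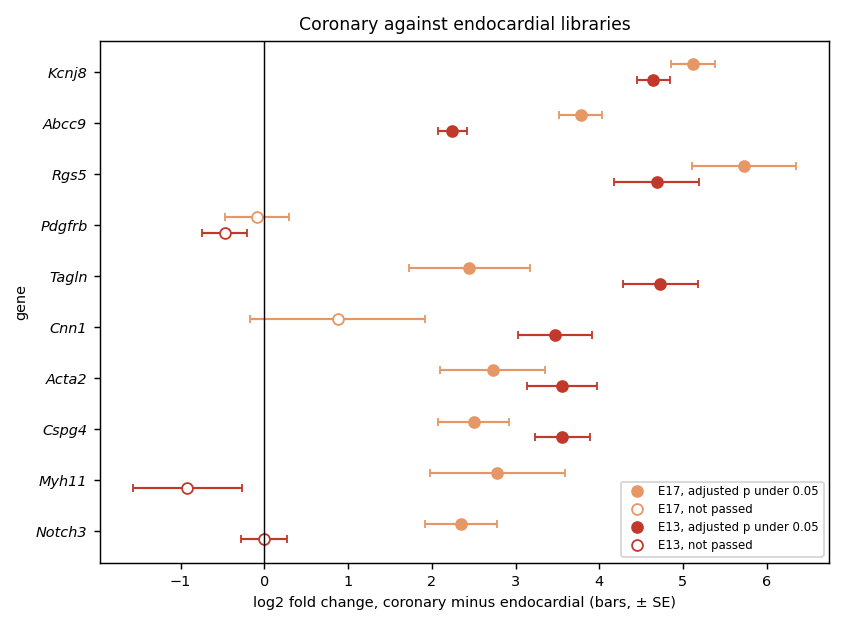
Log2 fold change of coronary over endocardial libraries for each mural gene, with E17 above E13 and bars of ± 1 SE from the edgeR fit. Filled points passed at an adjusted p under 0.05, and Kcnj8 and Rgs5 lie furthest right at E17 (5.12 and 5.73), whereas Pdgfrb lies below 0 and is open at both stages (-0.09 and -0.47).

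At E17 the same 8 genes that passed lay higher in both coronary libraries than in both endocardial libraries, as 37.3% of all genes tested did, and at E13 the 7 that passed did so in all libraries, as 27.6% did. In each of the 6 batches the coronary library lay above its endocardial partner in Kcnj8 (log2 ratios of 4.41 to 5.44), Abcc9 (1.95 to 4.20), Rgs5 (2.97 to 6.20), Tagln (2.19 to 5.56), Acta2 (1.64 to 4.28), Cspg4 (1.90 to 4.03) and Cnn1 (0.89 to 4.54). In the E17 batches 5 and 6 the ratio was 2.58 and 1.98 for Notch3 and 5.21 and 1.51 for Myh11.

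In the stage comparison within coronary libraries, 4 of the 10 genes passed as higher at E17 (Kcnj8, Abcc9, Rgs5 and Myh11) and 2 as lower (Tagln and Cnn1). Over all genes tested 24.6% passed as higher and 25.6% as lower, 50.1% in either direction, so the count of members is near the background. Kcnj8, Abcc9, Rgs5 and Myh11 did not overlap between the coronary libraries of the 2 stages in the upward direction, as 29.7% of all genes did not, and Tagln and Cnn1 in the downward direction, as 30.8% did not. Within endocardial libraries 1 member passed as higher (Cspg4) and 1 as lower (Notch3), against 16.2% and 15.6% of genes tested (31.8% in either direction). There 3 members (Kcnj8, Rgs5 and Cspg4) lay higher at E17 without overlap and 4 (Pdgfrb, Tagln, Cnn1 and Notch3) lower, as 26.7% and 25.9% of genes did. By DESeq2's Wald test the endocardial count of members was 5, as it was with only the groups compared and without E13 coronary replicate 1. It was 4 without E13 coronary replicate 3, and 1 without E17 endocardial replicate 1, E13 endocardial replicate 2 or E13 endocardial replicate 4. The population effect differed between stages for 3 of the 10 members, all larger at E17 (Abcc9, Notch3 and Myh11), against 16.2% of genes tested with a larger and 16.5% with a smaller value at E17 (32.7% in either direction). By DESeq2's Wald test 5 members passed, Tagln (-2.26, adjusted p = 0.0154) and Cnn1 (-2.57, adjusted p = 0.00977) in the direction of a smaller effect at E17. With no filter on low counts Tagln passed as well (-2.27, edgeR adjusted p = 0.0353). Without E13 coronary replicate 1 the count was 6, with Tagln (-2.60, edgeR adjusted p = 0.0015), Cnn1 (-2.91, adjusted p = 0.0122) and Cspg4 (-1.30, adjusted p = 0.0171) added. The Myh11 difference of 3.70 ± 1.03 (edgeR adjusted p = 0.0162) was lost without E17 endocardial replicate 1 (2.84, adjusted p = 0.0623) or E17 coronary replicate 1 (3.28, adjusted p = 0.0617), and was 5.72 without E17 endocardial replicate 2. The stage comparisons and the population comparisons share libraries and are not independent of each other.

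**Figure D3:**
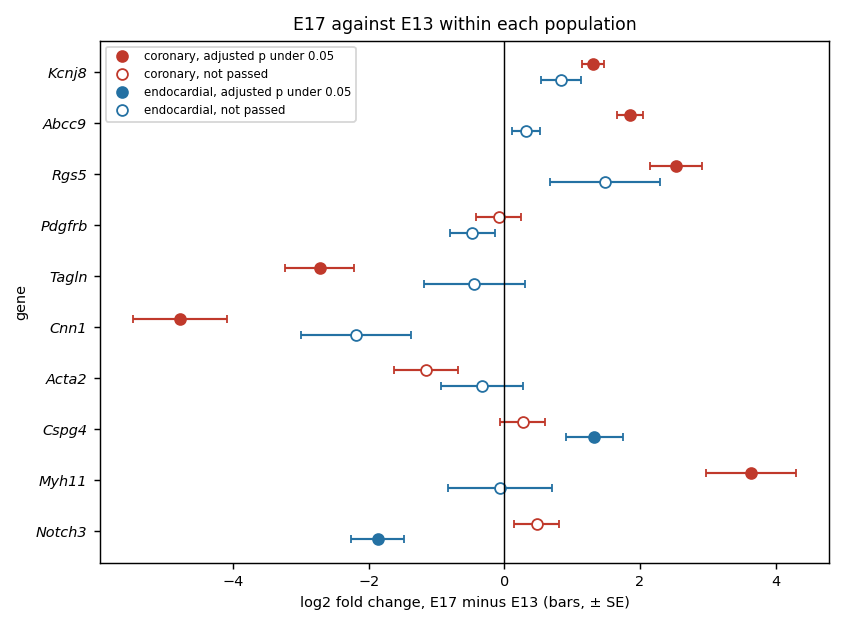
Log2 fold change of E17 over E13 libraries for each mural gene, coronary above endocardial, with bars of ± 1 SE from the edgeR fit and filled points at an adjusted p under 0.05. Coronary values run from -4.79 for Cnn1 to 3.64 for Myh11, and in endocardial libraries only Cspg4 and Notch3 are filled.

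The 4 E13 coronary libraries differed from each other in their mesenchymal and endothelial genes, which allowed each mural gene to be set beside both. The mesenchymal list summed to 3656, 6468, 8517 and 6115 CPM in replicates 1 to 4, and the pan-endothelial list to 9421, 7845, 7011 and 8129 CPM. Replicate 1 was thus lowest in mesenchymal and highest in endothelial genes, and replicate 3 the reverse. The glial and neural crest list moved in the same way as the mesenchymal list, at 14.9, 36.2, 48.3 and 35.8 CPM, while the cardiomyocyte list was lowest in replicate 2, at 360, 187, 380 and 314 CPM. The part of these other cell types in the pattern was not tested.

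Rgs5, Pdgfrb, Tagln, Cnn1, Acta2, Cspg4 and Notch3 all ran in the order replicate 3, 2, 4, 1 from high to low. The same order was seen in 9 of the 12 mesenchymal genes, in 0 of the 12 pan-endothelial genes and in 947 of the 10753 genes tested with at least 5 CPM in these libraries, or 8.81%. Kcnj8 and Abcc9 ran in the order replicate 1, 2, 4, 3, so that replicates 1 and 3 changed places. That exact order was seen in 0 of the 12 pan-endothelial genes, 2 of the 12 capillary endothelial genes and 11.5% of the 10753 genes, whereas 10 of the pan-endothelial genes ran 1, 4, 2, 3, as 11.9% of the 10753 genes did. The log2 ratio of replicate 3 over replicate 1 was -0.54 for Kcnj8 and -0.72 for Abcc9, beside a median of -0.52 for the pan-endothelial list and -0.83 for the capillary endothelial list. It was 2.48 for Cnn1, 2.41 for Rgs5, 2.29 for Tagln and 2.02 for Acta2, above the mesenchymal median of 1.72. It was 1.73 for Pdgfrb, 1.63 for Notch3 and 1.57 for Cspg4, next to that median, and the median over the 10753 genes was -0.05.

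To place each gene, its log2(CPM + 0.5) was centred over the 4 libraries and set against the centred mean of each list by the root mean square difference. Cspg4 lay 0.0362 from the mesenchymal mean and 0.723 from the endothelial mean, the smallest distance of the 10 genes to either list. Notch3 (0.059 and 0.736) and Pdgfrb (0.104 and 0.791) followed, and then Acta2 (0.218), Rgs5 (0.317), Tagln (0.332) and Cnn1 (0.354), whose range between libraries was wider than that of the list. Kcnj8 lay 0.0939 from the endothelial and 0.739 from the mesenchymal mean, and Abcc9 0.136 and 0.803. The endothelial mean varied little, at 0.23, -0.04, -0.21 and 0.03 in replicates 1 to 4. A gene that hardly varies therefore also lies nearer to it than to the mesenchymal mean. The share of all genes nearer to either list was not taken. Myh11 lay nearly as far from one list as from the other, 0.408 from the endothelial and 0.448 from the mesenchymal, on 20 counts in all. Its nearer list turned to the mesenchymal without replicate 1, without replicate 2 or with summed CPM in place of means of logs, so it was placed with neither. The other 9 genes kept their nearer list under each alternative tried.

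**Figure D4:**
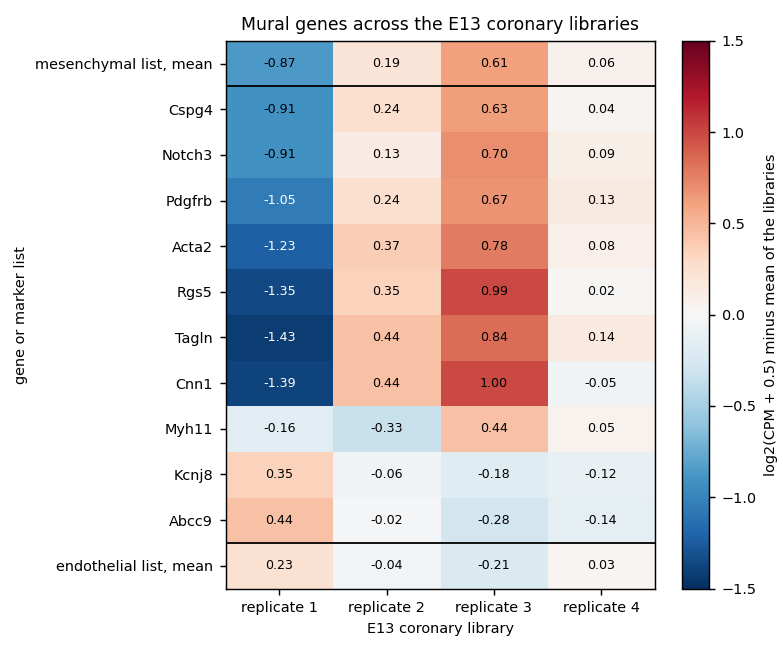
Each mural gene and the means of the mesenchymal and endothelial lists in the E13 coronary libraries, as log2(CPM + 0.5) minus the mean of the 4 libraries, in colour and printed in each cell. Kcnj8 and Abcc9 are highest in replicate 1 like the endothelial list, and 7 genes are lowest there like the mesenchymal list.

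The 2 E17 coronary libraries differed in the same kind of way, with the mesenchymal list summing to 5432 CPM in replicate 1 but 2615 CPM in replicate 2. All 12 mesenchymal genes were higher in replicate 1, with a median log2 ratio of 1.06, and 0 of the 12 pan-endothelial genes were, with a median of -0.13. All 10 mural genes were higher in replicate 1, as 5065 of the 10753 genes were. Acta2 (1.12), Notch3 (1.00), Cnn1 (1.00), Tagln (0.98), Cspg4 (0.90), Pdgfrb (0.76), Myh11 (0.76) and Rgs5 (0.56) lay closer to the mesenchymal median. Abcc9, at 0.07, lay closer to the endothelial median, and so, less clearly, did Kcnj8, at 0.37. Kcnj8 and Rgs5 both lay well between the medians of the lists. With 2 libraries there is no measure of the spread of these ratios.

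Proportions among the genes nearer to the mesenchymal list also differed between the stages. In E17 coronary libraries Tagln had 0.0173 and 0.0197 counts per count of the collagen gene Col1a1, against 0.0963, 0.129, 0.124 and 0.120 in E13 coronary libraries. Cnn1 had 0.0549 and 0.0541 counts per count of Tagln in E17 coronary libraries, against 0.221, 0.225, 0.251 and 0.194 in E13 coronary libraries. Rgs5 had 1.36 and 1.56 counts per count of Pdgfrb in E17 coronary libraries, against 0.171, 0.236, 0.274 and 0.202 in E13 coronary libraries. None of these 3 ratios overlapped between the stages, although E13 coronary replicates 1 and 3 differed several-fold in each of the genes. Cspg4 per count of Col1a1 stayed within a narrow span, at 0.0489 and 0.0587 in E17 coronary and 0.0538, 0.0439, 0.0420 and 0.0439 in E13 coronary libraries. Col1a1 itself gave 0.04 ± 0.46 for E17 minus E13 in coronary libraries, beside -2.81 ± 0.53 for Mfap4 of the same list. Of the 12 mesenchymal genes 6 passed as lower and 1 as higher there, against 25.6% and 24.6% of all genes tested. With libraries left out these counts ran from 5 to 7 and from 0 to 2. Ratios to Col1a1 thus do not stand for the list as a whole.

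Levels of different genes were compared per kilobase of exon. In E17 coronary libraries Abcc9 was highest at 63.0 ± 2.0 CPM per kilobase (SD, n = 2), above Rgs5 at 30.3 ± 8.3, and the 2 did not overlap within their SD. Rgs5 overlapped Acta2 and Pdgfrb within their SD, but lay above both genes in each of the 2 libraries. Acta2 (18 ± 9.4), Kcnj8 (17.7 ± 3.2) and Pdgfrb (17.5 ± 6.4 CPM per kilobase) could not be ordered among themselves. Notch3 (10.8 ± 5.1), Tagln (6.63 ± 3.1) and Cspg4 (3.18 ± 1.4) followed, each overlapping its neighbour within the SD but in this order in both libraries. Myh11 and Cnn1 were lowest at 0.424 ± 0.15 and 0.263 ± 0.12 CPM per kilobase. In E13 coronary libraries Tagln (43.5 ± 22.5 CPM per kilobase, SD, n = 4) and Acta2 (39.8 ± 19.2) had the highest means, but both overlapped Pdgfrb (18.6 ± 7.8) and Abcc9 (17.5 ± 4.0) within their SD. Library by library, both lay above Pdgfrb in every E13 coronary library. In E13 coronary replicate 1 Abcc9, at 23.3 CPM per kilobase, lay above Tagln (13.8) and Acta2 (15). Notch3 (7.76 ± 3.2), Cnn1 (7.19 ± 4.3), Kcnj8 (7.17 ± 1.3) and Rgs5 (5.24 ± 3.0 CPM per kilobase) overlapped within their SD, with Notch3 and Cnn1 reaching the SD of Pdgfrb. Notch3 and Cnn1 nevertheless lay above Rgs5 in every E13 coronary library. Cspg4 lay at 2.63 ± 1.0 and Myh11 at 0.0336 ± 0.024. In both endocardial groups Pdgfrb was the highest of the 10 genes, at 18.6 ± 1.8 CPM per kilobase at E17 and 25.8 ± 1.3 at E13.

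Among 22 other genes used as mural markers, 13 passed as higher and 6 as lower in coronary libraries at E17, against 26.5% and 26.1% of all genes tested, with a median log2 fold change of 1.89 against -0.01 over all genes. At E13, 11 passed as higher and 5 as lower, against 30.1% and 29.9% of all genes, with a median of 1.59 against -0.02. The Notch target gene Heyl was higher at E17 (2.74 ± 0.29, edgeR adjusted p = 7.54e-06) and at E13 (2.36 ± 0.20, adjusted p = 7.83e-07). The T-box gene Tbx2 was higher at E17 (5.35 ± 0.45, edgeR adjusted p = 1.1e-06). Its mean levels at E13 were 3.35 CPM in coronary and 0.315 CPM in endocardial libraries. Anpep, the aminopeptidase CD13, was lower at E17 (-3.05 ± 0.19) and at E13 (-2.0 ± 0.12), and so were the collectin gene Colec11 (-4.11 ± 0.35 and -3.05 ± 0.26) and Gucy1b1, a subunit of the nitric oxide receptor (-2.42 ± 0.23 and -1.74 ± 0.16). The pericyte markers Vtn and Higd1b, singled out after their values were seen, had 1.78 and 0.72 CPM and 3.09 and 2.40 CPM in the E17 coronary libraries, and at most 0.05 and 0.32 CPM in E13 coronary libraries. Both were near 0 at E13, where Rgs5 and Cspg4 were read at several CPM or more. Other markers of the list ran differently. Angpt1, an angiopoietin, had 1.85 and 0.36 CPM in E17 coronary libraries, against 2.60, 8.40, 13.4 and 8.69 CPM in E13 coronary libraries, and fell (-2.93 ± 0.67, edgeR adjusted p = 0.00311). The cation channel gene Trpc6 had 0.89 and 0.36 CPM in E17 coronary libraries, against 5.30, 7.45, 5.90 and 4.64 CPM in E13 coronary libraries, and also fell (-3.23 ± 0.46, adjusted p = 9.4e-05). Heyl (0.03 ± 0.22, adjusted p = 0.923) and Art3 (0.70 ± 0.32, adjusted p = 0.0884) were read in all E13 coronary libraries and did not pass. Of the 22 genes, 14 passed as higher at E17 than at E13 in coronary libraries and 3 as lower, against 24.6% and 25.6% of all genes tested, or 8 and 5 without E17 coronary replicate 1.

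Of 20 other contractile genes of smooth muscle, 12 passed as higher and 2 as lower in coronary libraries at E17 (median 0.49 against -0.01 over all genes), where 26.5% and 26.1% of all genes tested did. At E13 10 passed as higher and 3 as lower (median 0.48 against -0.02), where 30.1% and 29.9% of all genes did. Tpm2, a tropomyosin, was higher at E13 by 3.52 ± 0.40, and Srf, the serum response factor, by 0.79 ± 0.09 (edgeR adjusted p = 1.03e-05 and 1.19e-05). Mean levels at E17, coronary against endocardial, were 13.4 against 1.04 CPM for Tpm2 and 97.6 against 70.5 CPM for Srf. Mylk, the myosin light chain kinase, was higher at E17 by 1.83 ± 0.15. In the stage comparison within coronary libraries 6 of the 20 passed as higher and 4 as lower, near the 24.6% and 25.6% of all genes tested, with a median of -0.13 against -0.02. The 4 that fell were Synpo2 (-2.65 ± 0.59), Myocd (-2.19 ± 0.65), Myl9 (-1.11 ± 0.36) and Flna (-0.19 ± 0.07). Myocd encodes myocardin, a coactivator of serum response factor in smooth muscle. The count of contractile genes that fell was 7 without E13 coronary replicate 1, 1 without E17 coronary replicate 2 and 2 with only the groups compared, and the count that rose was 3 without E17 coronary replicate 1.

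Pdgfb, the ligand of the Pdgfrb receptor, stood at 280 and 338 CPM in E17 coronary libraries, against 33.7 and 33.9 CPM in E17 endocardial libraries. At E13 it stood at 209, 139, 109 and 162 CPM in coronary libraries, against 18.8, 14, 13.7 and 17 CPM in endocardial libraries. The ligand was thus higher in coronary libraries without overlap, by log2 3.19 ± 0.25 at E17 and 3.28 ± 0.18 at E13 (edgeR adjusted p = 6.28e-07 and 3.06e-08), where Pdgfrb was not. Among E13 coronary libraries its level was greatest in replicate 1 and smallest in replicate 3, the opposite of Pdgfrb. Of 6 genes of the platelet-derived growth factor system, Pdgfb among them, 2 passed as higher and 1 as lower in coronary libraries at E17, against 26.5% and 26.1% of all genes tested. The count that passed as lower was 2 without E17 coronary replicate 1, E13 coronary replicate 1 or E13 coronary replicate 2. At E13 all 6 passed as higher, against 30.1% of all genes. Of 12 ligands, receptors and targets of Notch set beside Notch3, 7 passed as higher and 4 as lower at each stage, against the same shares of all genes at E17 and 30.1% and 29.9% at E13. At E17 the count that passed as lower was 2 without E17 coronary replicate 2 or E17 endocardial replicate 1. They included the ligand Jag2 (5.30 ± 0.23 at E17 and 3.85 ± 0.16 at E13), which was higher, and the ligand Dll1 (-3.00 ± 0.10 and -1.72 ± 0.07), which was lower.

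Each member was finally set beside the genes outside the 10 whose pattern over all 12 libraries was most like its own, by the root mean square difference of centred log2(CPM + 0.5). For Kcnj8 these were Jag2 (0.243), St8sia6 (0.277) and Unc5b (0.286), and for Abcc9 Hip1r (0.247), Nid2 (0.273) and Kitl (0.275). For Tagln they were Clmp (0.214), Tenm3 (0.279) and Fmod (0.322), for Cnn1 Unc5c (0.258), Myrf (0.311) and Lef1 (0.469), and for Acta2 Loxl1 (0.266), Gli2 (0.293) and Ptpn13 (0.321). Rgs5 was nearest to Aspn (0.432), Cxcl12 (0.448) and Dpt (0.456), Cspg4 to Itih5 (0.316), Ddr2 (0.365) and Adamts2 (0.383), and Pdgfrb to Igsf10 (0.229), Zbtb37 (0.277) and Thy1 (0.290). Myh11 was nearest to Pnkd (0.405), Ccnd1 (0.417) and Cgas (0.437), and Notch3, whose nearest gene was the most distant of the 10, to Naalad2 (0.484), Plcl2 (0.486) and Ckb (0.505). Among the members themselves the closest pair was Tagln and Acta2 at 0.612, and Kcnj8 and Abcc9 lay 0.808 apart.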

How the data were processed

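RNA was measured in 12 libraries of sorted mouse cells, grouped by the titles in the labels. The authors deposited expected counts per gene, and 18.3% of the values are not whole. The tools named in the submitters' processing notes are RSEM 1.2.3, cutadapt 1.3 and CASAVA 1.8.2, with build GRCm38, and no settings are given there. Reads shared by similar genes are split between them by RSEM, and the poly(A) libraries of the NEBNext Ultra kit do not mark strand, per the labels' protocols.

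Symbols were matched for 40254 of 41214 identifiers. Expected counts were rounded and filtered with filterByExpr (minimum count 10, total 15), which left 15171 genes and all 10 members. edgeR 4.0.16 in R 4.3.3 was run with TMM scaling and 1 model of 4 group means over the 12 libraries, leaving 8 residual degrees of freedom, and the common biological coefficient of variation was 0.126. Tests were two-sided. Exact ratios divide pooled counts and cover counting error only. Exon lengths are unions of GENCODE M21 exons and promoter windows are RefSeq's (GRCm38.p6), which held 7 of the 10 members.

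The members and the 14 gene lists were chosen with earlier results of these data known. Genes named beyond the members are, per list and comparison, up to 4 with the smallest adjusted p, the most abundant that did not pass and all of a count of 5 or fewer, and for each member the 3 most alike genes with a mean of at least 5 CPM. Not all genes that this rule takes are printed.

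Replicates differed beyond counting noise. The batch label pairs 1 coronary with 1 endocardial library of 1 stage. Across 9481 genes, which are not independent, library deviations from their group means had a correlation of 0.353 within E17 batches and of 0.310, 0.647, 0.313 and 0.459 within E13 batches 1 to 4, with -0.495 to 0.376 for E13 libraries of different batches. The E17 value is a single number, because the deviations of the libraries in each E17 group mirror each other. At E13 the largest value for different batches, 0.376, lay above the same-batch values of 0.310 and 0.313. Batches were taken to pair the libraries, but the main model held no block for batch. Its SEs and adjusted p-values therefore leave the pairing out. Alternatives were DESeq2 1.42.0, its size factors, no filter, only the groups compared, batch as a replicate block and each library left out. Setting E13 coronary replicate 1 alone against the endocardial libraries was added after seeing the data, and its ratio for Notch3 is given as a value with no test. The fit was tested on simulated data.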

Additional observations from a re-analysis of the deposited data

Results flagged for a closer look

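For 3 of the 10 mural genes the coronary minus endocardial log2 fold change at E17 differed from that at E13, by edgeR's test of the difference itself. Over all genes tested 32.7% passed this test, so the count of members is near the background. The difference was 1.53 for Abcc9 (adjusted p = 0.00173), 2.35 for Notch3 (adjusted p = 0.00373) and 3.70 for Myh11 (adjusted p = 0.0162). For Abcc9 it went with a larger rise in coronary libraries (1.85) than in endocardial libraries (0.32), and for Notch3 with an endocardial value of -1.87. Myh11 rests on 99 counts in the E17 coronary libraries and 15 in the E17 endocardial libraries. Its call was lost without E17 endocardial replicate 1 (edgeR adjusted p = 0.0623) or E17 coronary replicate 1 (edgeR adjusted p = 0.0617). No library of a group of 4 stood apart from the others in any mural gene by Dixon's test.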

How the results depend on the processing

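The counts of mural genes that passed in the population comparisons stayed within 1.5 times of the values reported in every alternative with a test, at 6 to 8 at E17 and 7 to 8 at E13 when single libraries were left out. With batch as a replicate block the counts were 8 at E17, 8 at E13 (Pdgfrb added, log2 -0.58) and 3 for the difference between stages, and no other call of a member changed. Each batch holds 1 stage, so no block could be fitted to E17 minus E13. The count for endocardial E17 minus E13, 2 as reported, was 5 by DESeq2's Wald test, 5 with only the groups compared and 1 to 5 with libraries left out. The count for the difference between stages, 3 as reported, was 5 by DESeq2's Wald test and 2 to 6 with libraries left out. The cause was not tested. For coronary E17 minus E13 the count ran from 6 to 7.

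Signs turned only for values that did not pass. Notch3 at E13 was 0.0237 with DESeq2 size factors, 0.0225 by DESeq2's Wald test, 0.00051 with no filter and 0.0281 with only the groups compared, and ran from -0.25 to 0.25 with libraries left out. With libraries left out, Pdgfrb ran from -0.50 to 0.25 at E17, from -0.52 to 0.25 for coronary E17 minus E13 and from -0.047 to 0.73 for the difference between stages. Coronary E17 minus E13 ran from -0.25 to 0.65 for Cspg4 and from -0.11 to 0.90 for Notch3, and endocardial E17 minus E13 from -0.078 to 0.63 for Abcc9 and from -2.08 to 0.80 for Myh11. Of the member values under an alternative, 760 kept direction and side of the threshold, 27 came to pass, 11 no longer passed and 20 turned sign. The 2 E17 libraries of each population and the few counts of Myh11 and of Cnn1 at E17 limit the precision.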
